A study of Mus musculus with 17 samples.

Results

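The 9 genes described here encode cadherins, catenins and the epithelial surface protein Epcam: Cdh1, Cdh2, Cdh3, Cdh11, Epcam, Ctnna1, Ctnnb1, Ctnnd1 and Jup. They were taken by name, all 9 were measured, and they are 9 of 12393 genes on the array. Where a gene had several probe sets, the brightest on average across the 17 arrays stands for it. RNA came from mammary tumours of FVB mice with an MMTV-driven transgene for Myc T58A, a mutant form of Myc; MMTV is a promoter active in mammary epithelium. The labels call all of the tumours low expressing, and by histology there were 9 Squamous tumours, 6 EMT tumours (epithelial to mesenchymal transition), 1 Papillary tumour and 1 Microacinar tumour, with 1 Affymetrix array each. All groups carried the same transgene, and no tissue without it was compared. The labels give neither the age of the mice nor whether the tumours came from separate animals, so p-values measure only the spread between these tumours. Values are log2 values as deposited, tumours are numbered within their label only to tell them apart, and the number of arrays limits the precision.

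Classical cadherins are adhesion proteins that span the membrane and bind a cadherin of the same kind on the next cell. Inside the cell their tails bind beta-catenin (Ctnnb1) or plakoglobin (Jup), which link them through alpha-catenin (Ctnna1) to actin, while p120 catenin (Ctnnd1) binds nearer the membrane and keeps the cadherin at the surface. In the mammary gland E-cadherin (Cdh1) and Epcam mark epithelium, P-cadherin (Cdh3) marks its basal layer, and N-cadherin (Cdh2) and cadherin 11 (Cdh11) are found in mesenchymal cells; an exchange of E-cadherin for N-cadherin is known as cadherin switching.

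Arrays came with title formats of 2 kinds, 14 with numbered titles and 3 in which TM follows a number (EMT 5, EMT 6 and Squamous 9). The TM arrays were spread more widely, their SD across probe sets being at least 2.46 against at most 2.29 for numbered arrays, and they shared many exactly equal values: 4850 between EMT 5 and EMT 6, 4328 between EMT 6 and Squamous 9 and 4306 between EMT 5 and Squamous 9, against at most 18 in any other pair of arrays. Whether the TM arrays were processed apart from the others is not given in the sources used here, and they include EMT 5 and EMT 6, on which results described for EMT 4 to EMT 6 rest in part. RNA integrity was read from Gapdh control probe sets, whose 3′ signal exceeds the 5′ signal by more in less intact RNA: this log2 difference was 0.39 for EMT 4, −0.0058 for EMT 5 and −0.029 for EMT 6, and −0.022 to 0.38 over the Squamous arrays. Luminal epithelial markers, 7 of 7 measured, averaged 10.07 to 11.98 in the Squamous tumours, 9.83 to 11.71 in EMT 1 to EMT 3, and 8.22, 6.49 and 7.88 in EMT 4 to EMT 6.

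Of the 9 genes, 4 had a promoter window in the RefSeq tables (GRCm38.p6), which cover 250 bases before to 50 bases after a start site. The windows of Epcam and Jup are shown because these genes lay below every Squamous tumour in the same EMT tumours, and that of Ctnnb1 because it did not. Capitals mark CACCTG or its reverse complement CAGGTG, the E-box form bound by Zeb and Snail family repressors. These letters occur in 20.2% of the 32851 windows of 300 bases in the table and at 2 or more positions in 2.9%, and a match is a description of the letters only. The Epcam window is on chromosome 17 at chr17:87635729-87636028 (plus strand), the Jup window at chr11:100397741-100398040 (minus strand) and the Ctnnb1 window at chr9:120933150-120933449 (plus strand).
Epcam: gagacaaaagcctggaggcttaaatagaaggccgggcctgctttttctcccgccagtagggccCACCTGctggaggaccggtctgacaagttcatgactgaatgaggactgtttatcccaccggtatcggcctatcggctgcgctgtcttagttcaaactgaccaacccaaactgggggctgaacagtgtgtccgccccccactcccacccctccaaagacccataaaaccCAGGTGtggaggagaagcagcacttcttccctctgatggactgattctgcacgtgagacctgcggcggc
Jup: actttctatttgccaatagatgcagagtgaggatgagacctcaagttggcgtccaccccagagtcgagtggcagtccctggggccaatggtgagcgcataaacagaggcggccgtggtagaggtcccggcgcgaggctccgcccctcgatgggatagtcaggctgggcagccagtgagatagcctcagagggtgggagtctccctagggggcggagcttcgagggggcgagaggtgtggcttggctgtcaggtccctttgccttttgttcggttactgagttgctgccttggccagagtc
Ctnnb1: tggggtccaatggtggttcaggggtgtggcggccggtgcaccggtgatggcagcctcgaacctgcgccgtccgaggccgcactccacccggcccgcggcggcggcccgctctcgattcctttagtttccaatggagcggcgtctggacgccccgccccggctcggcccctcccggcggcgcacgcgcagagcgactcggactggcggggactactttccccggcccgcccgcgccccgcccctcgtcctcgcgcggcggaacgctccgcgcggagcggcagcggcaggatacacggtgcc
The Epcam window held CACCTG at position −187 and CAGGTG at position −19 from the start site. The windows of Jup, Ctnnb1 and Ctnnd1 held 0.

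Cdh1 divided the EMT tumours, over which it spanned 5.05 log2 units, against 0.84 over the Squamous tumours. Its SD of 0.31 among Squamous tumours exceeded the SD of 62.4% of all genes there. Its log2 value was lowest at 11.13 in Squamous 9, with a median of 11.64 and a highest value of 11.97 in Squamous 1. Among EMT tumours, 3 were at or just above the Squamous range, with 11.91 in EMT 1, 12.09 in EMT 2 and 11.84 in EMT 3, and 3 were far below it, with 7.19 in EMT 4, 8.10 in EMT 5 and 7.04 in EMT 6. On the linear scale these last values were 21.0, 11.2 and 23.4 times below the Squamous mean, and the gap to the lowest Squamous tumour was −3.94, −3.03 and −4.09 log2 units. Of all genes, 0.549%, 1.69% and 0.694% lay as far or farther below their own Squamous mean in EMT 4 to EMT 6. The Papillary tumour (11.78) and the Microacinar tumour (11.34) lay within the Squamous range. In bulk tissue, fewer epithelial cells and less RNA per epithelial cell cannot be told apart.

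**Figure D1:**
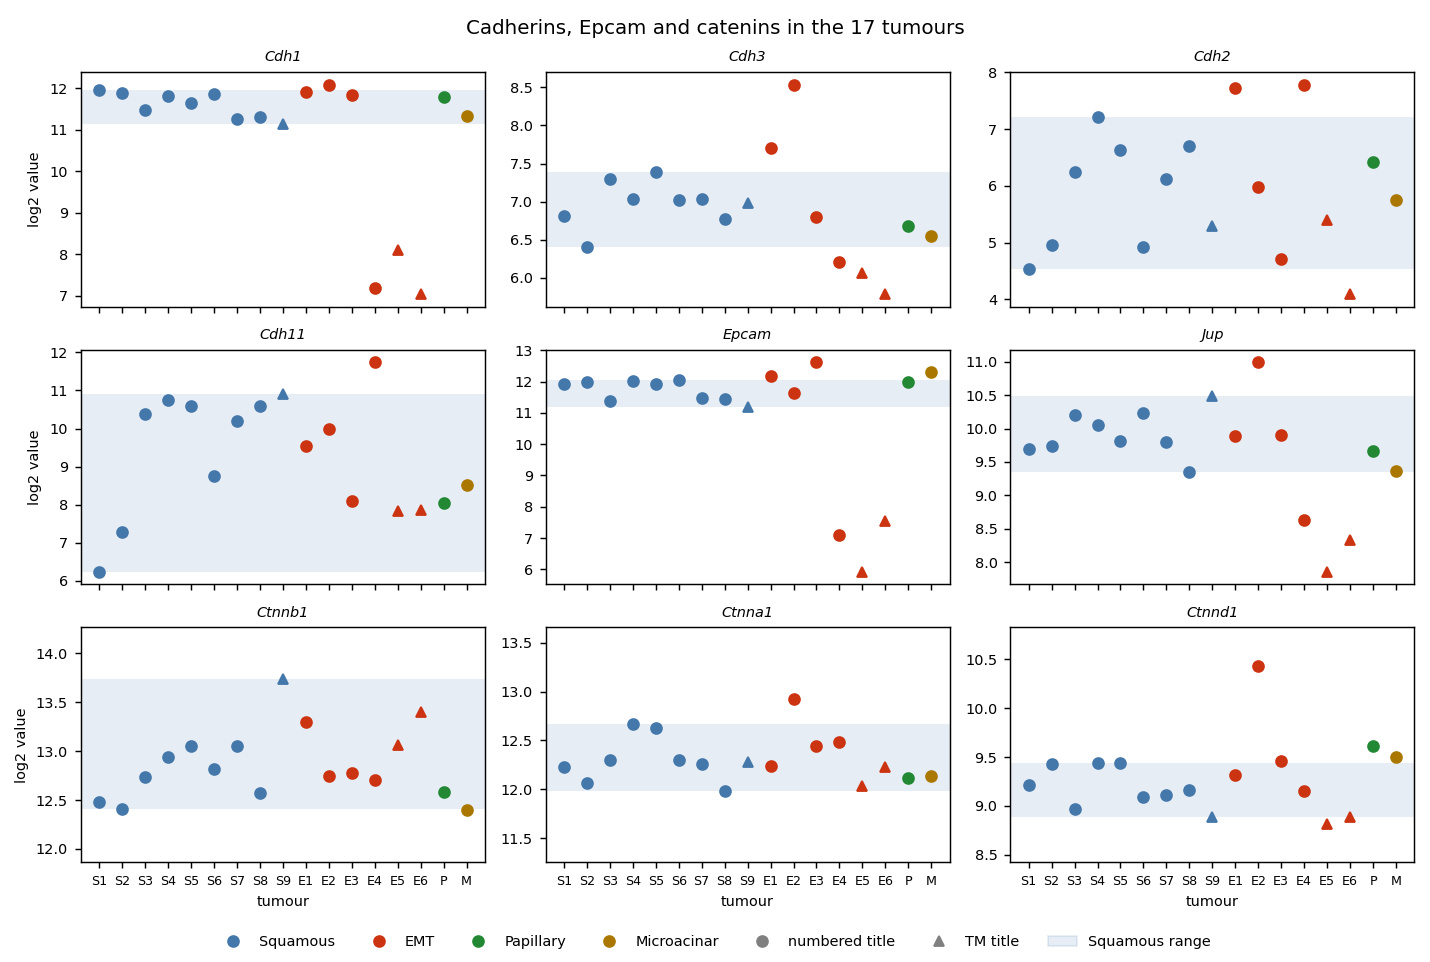
Log2 value of each of the 9 genes (one panel each, with its own axis) in the 17 tumours (S Squamous, E EMT, P Papillary, M Microacinar); triangles are arrays with TM titles and the band spans the 9 Squamous tumours. Cdh1 and Epcam sit inside or above the band in EMT 1 to EMT 3 and at 7.04 to 8.10 and 5.92 to 7.56 in EMT 4 to EMT 6, while Ctnnb1 stays inside the band in every EMT tumour.

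Epcam, a homophilic surface protein of epithelial cells that is no cadherin, divided the EMT tumours in the same way. It ranged from 11.19 in Squamous 9 to 12.05 in Squamous 6, with a median of 11.92. The EMT values were 12.18, 11.64 and 12.62 in EMT 1 to EMT 3, and 7.09, 5.92 and 7.56 in EMT 4 to EMT 6. EMT 5, which had the highest Cdh1 of these last tumours, had the lowest Epcam, 55.4 times below the Squamous mean against 24.8 times in EMT 4 and 17.9 times in EMT 6. EMT 3 at 12.62 and the Microacinar tumour at 12.30 had the highest values of the series, both above every Squamous tumour, and the Papillary tumour had 11.99.

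Of the 7 luminal epithelial markers, 5 (Krt19, Elf5, Muc1, Cldn3 and Cldn4) lay below every Squamous tumour in each of EMT 4 to EMT 6, as Cdh1 and Epcam did. The keratin Krt19 was 6.32, 6.50 and 5.64 in these tumours, against 8.43 to 12.32 in Squamous tumours. The other 2 markers, the keratins Krt8 and Krt18, did so in EMT 5 only; the markers in this paragraph are named after their values were seen. Krt8 was 13.20 in EMT 4 and 12.50 in EMT 6, against 11.56 to 13.18 in Squamous tumours, and 7.35 in EMT 5. For its partner Krt18 the values of EMT 4 and EMT 6 were 12.29 and 11.52 and that of EMT 5 was 6.61, where Squamous tumours had 11.18 to 12.61. Krt8 and Krt18 therefore lay within or just above the Squamous range in EMT 4 and EMT 6 and far below it in EMT 5. Low luminal markers were not confined to tumours with low Cdh1. EMT 2, with the highest Cdh1, had Elf5 at 7.50 and Cldn3 at 9.09, where the lowest Squamous values were 10.94 and 10.04. The other luminal markers of EMT 2 lay within their Squamous ranges, and its list mean of 9.83 was below the lowest Squamous mean of 10.07.

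Cdh3 lies next to Cdh1 on mouse chromosome 8, with no coding gene between them in the RefSeq gene table. It was lowest at 6.40 in Squamous 2, with a median of 7.02 and a highest value of 7.39 in Squamous 5. EMT 2 had 8.54 and EMT 1 had 7.70, both above every Squamous tumour, EMT 3 had 6.79, and EMT 4 to EMT 6 had 6.20, 6.07 and 5.79, all below every Squamous tumour. The Papillary (6.68) and Microacinar (6.55) tumours lay in the lower part of the Squamous range. Cdh3 was thus low in the tumours in which Cdh1 was low, at 1.70, 1.87 and 2.27 times below the Squamous mean, a smaller distance than that of Cdh1. Myoepithelial and basal markers, 7 of 7 measured, had a mean of 6.89, 6.89 and 6.43 in EMT 4 to EMT 6, against 7.64 to 9.93 in Squamous tumours. Of these, the basal markers Krt5, Krt14 and Trp63 lay below every Squamous tumour in each of EMT 4 to EMT 6. Acta2 and Myh11, which are contractile genes, lay within their Squamous ranges. Cnn1 was 5.45, 6.82 and 4.95 against 5.37 to 7.45 in Squamous tumours, below the range in EMT 6 only. Oxtr was 4.95, 4.31 and 4.09 against 4.33 to 5.47, below the range in EMT 5 and EMT 6. Oxtr lay below the lower quartile of the array on 14 arrays. The markers were grouped in this way after their values were seen. In EMT 1 and EMT 2, where Cdh3 was above every Squamous tumour, the mean of the list was 8.58 and 9.77, within the Squamous range. The part of basal cells in the Cdh3 values was not tested.

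Cdh2 did not replace Cdh1 across the tumours that had low Cdh1. EMT 4 had the highest value of the series, 7.79, EMT 5 had 5.40, and EMT 6 had the lowest value of the series, 4.10. EMT 1, which had Cdh1 at 11.91, had the next highest Cdh2 at 7.72, and EMT 2 and EMT 3 had 5.98 and 4.71. Squamous tumours ranged from 4.54 in Squamous 1 to 7.22 in Squamous 4, with a median of 6.12, and the Papillary and Microacinar tumours had 6.43 and 5.76. Low Cdh1 together with Cdh2 above the Squamous range therefore occurred in EMT 4 alone of the 17 tumours, and EMT 1 had high Cdh2 with Cdh1 in the Squamous range. A dimmer probe set of Cdh2, below the lower quartile of the array on 15 of 17 arrays, placed the same tumours outside its own Squamous range, with 6.58 in EMT 4 and 5.68 in EMT 1 above it and 4.33 in EMT 6 below it. The probe set used for Cdh2 lay below the lower quartile on 6 of 17 arrays, where differences are close to the lower end of the scale.

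Skeletal muscle also expresses Cdh2, and its markers, 7 of 7 measured, differed between the tumours with high Cdh2. Their mean was 11.50 in EMT 4, the highest of the series, and 5.38 in EMT 1, against 5.38 to 9.67 in Squamous tumours. Of these markers Ckm, Acta1 and Des lay above the lower quartile on every array. The next highest muscle marker means were 10.68 in the Microacinar and 10.14 in the Papillary tumour, where Cdh2 was 5.76 and 6.43. The part of muscle in the Cdh2 values was not tested. Schwann and nerve markers, 4 of 6 measured, averaged 6.99 in EMT 4 and 8.42 in EMT 1, against 7.17 to 8.59 in Squamous tumours. Sox10, which is in this list, lay below every Squamous tumour in EMT 2 and EMT 4 to EMT 6, as the luminal marker Elf5 did. The mean of the list can therefore not be read as nerve alone. In EMT 4, Sox10 was 7.45 against 8.89 to 11.61 in Squamous tumours, Mbp 7.22 against 8.38 to 8.85 and Ngfr 5.78 against 6.15 to 7.33. S100b went the other way at 7.53, above all but 1 Squamous tumour. The part of Schwann and nerve cells in the Cdh2 values was not tested.

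Cdh11, a cadherin of fibroblasts and osteoblasts, varied most among Squamous tumours, with an SD of 1.71 that exceeded the SD of 99.3% of all genes in these 9 tumours. It was lowest at 6.24 in Squamous 1 and 7.28 in Squamous 2, with a median of 10.38 and a highest value of 10.90 in Squamous 9. EMT 4 had 11.74, the highest of the series, and EMT 1 and EMT 2 had 9.55 and 9.99. EMT 3, EMT 5 and EMT 6 had 8.10, 7.83 and 7.85, and the Papillary and Microacinar tumours 8.04 and 8.51, all in the lower part of the Squamous range. Squamous 1, Squamous 2 and Squamous 6, which had the lowest Cdh11 of their label, also had the lowest Cdh2, at 4.54, 4.96 and 4.93.

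Fibroblast markers, 11 of 11 measured and all above the lower quartile on every array, had their lowest mean in Squamous 1 (8.63), the next lowest in Squamous 2, and their highest in EMT 4 (12.51), as Cdh11 did. EMT 5 and EMT 6 departed from this order. Their fibroblast marker means were 12.01 and 11.55, above 8 of the 9 Squamous tumours or more, while their Cdh11 values of 7.83 and 7.85 lay below those of 7 Squamous tumours. Single fibroblast markers differed in EMT 5 and EMT 6, and those named here were picked after their values were seen. Fap was 8.04 in both, against 6.61 to 9.52 in Squamous tumours, and Thy1 was 8.85 and 7.61 against 7.29 to 10.09. Pdgfra was 11.45 and 12.52 against 6.85 to 10.88, above every Squamous tumour. Squamous 9, the other array with a TM title, had a fibroblast mean of 11.89 with Cdh11 at 10.90. Macrophage markers, 6 of 6 measured, were highest in EMT 5 and EMT 6, at 11.54 and 11.22 against 8.45 to 10.54 in Squamous tumours, and their part in these values was not tested.

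**Figure D2:**
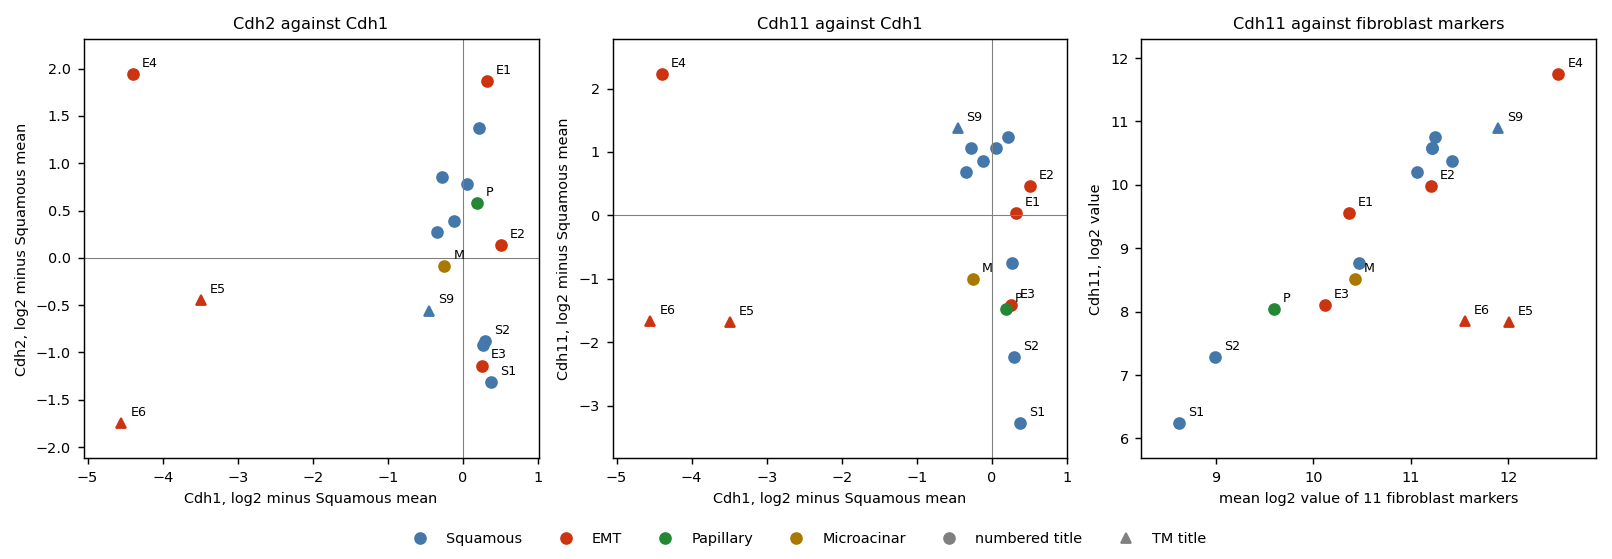
Left and middle, Cdh2 and Cdh11 against Cdh1 in the 17 tumours, each as log2 value minus the mean of the 9 Squamous tumours; right, the Cdh11 log2 value against the mean log2 value of 11 fibroblast markers; triangles are arrays with TM titles. Of the tumours at the far left, E4 (EMT 4) is high in both Cdh2 and Cdh11 and E5 and E6 are not, and in the right panel E5 and E6 lie below the other tumours with fibroblast means above 11.

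In the deposited values the catenins divided into Jup, which was low with Cdh1, and the other catenins, which stayed nearer the Squamous range. This depended in part on the scaling of the TM arrays. With quantile normalization Ctnna1 was −0.59 and −0.33 log2 units from the Squamous mean in EMT 5 and EMT 6, and 0.15 in EMT 4. For Ctnnd1 these differences were −0.55, −0.50 and −0.049, and for Ctnnb1 −0.15, 0.23 and −0.15. Jup, or plakoglobin, is shared by adherens junctions and desmosomes. It ranged from 9.36 in Squamous 8 to 10.48 in Squamous 9, with a median of 9.81. EMT 4 to EMT 6 had 8.63, 7.86 and 8.33, all below every Squamous tumour and 2.47, 4.19 and 3.03 times below the Squamous mean. EMT 2 had 10.99, above every Squamous tumour, EMT 1 and EMT 3 had 9.89 and 9.90, and the Papillary and Microacinar tumours had 9.66 and 9.36.

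Ctnnb1, or beta-catenin, is both a junction protein and the transcriptional co-activator of Wnt signalling. Its values of 13.30, 12.74, 12.78, 12.70, 13.07 and 13.40 in EMT 1 to EMT 6 all lay within the Squamous range of 12.41 to 13.74, and tumours with low and with retained Cdh1 overlapped. The Squamous median was 12.81 and the highest value came from Squamous 9. The Papillary tumour had 12.58 and the Microacinar tumour 12.39, just below the lowest Squamous tumour. Of the other probe sets of Ctnnb1, 1 placed EMT 4 below its Squamous range (9.04 against a lowest Squamous value of 9.22) and 1 placed EMT 1 above it (11.71).

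Ctnna1, or alpha-catenin, was the least variable of the 9 genes, with an SD over the 17 tumours of 0.25 and values from 11.98 in Squamous 8 to 12.93 in EMT 2. EMT 4 to EMT 6 had 12.48, 12.03 and 12.23, inside the Squamous range of 11.98 to 12.67. Another probe set gave 12.01, 11.98 and 12.45 in these tumours, the last above its Squamous range, and a further one stayed at 2.91 to 4.12 on every array.

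Ctnnd1, or p120 catenin, ranged from 8.88 in Squamous 9 to 9.44 in Squamous 4, with a median of 9.16. EMT 2 stood out at 10.43, EMT 1 and EMT 3 had 9.31 and 9.46, and EMT 4 to EMT 6 had 9.15, 8.82 and 8.88. EMT 5 was the only one of these below the Squamous range, by −0.065 log2 units, and EMT 6 and Squamous 9, both with TM titles, had exactly the same value. The Papillary tumour had 9.61 and the Microacinar tumour 9.50, both above every Squamous tumour.

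**Figure D3:**
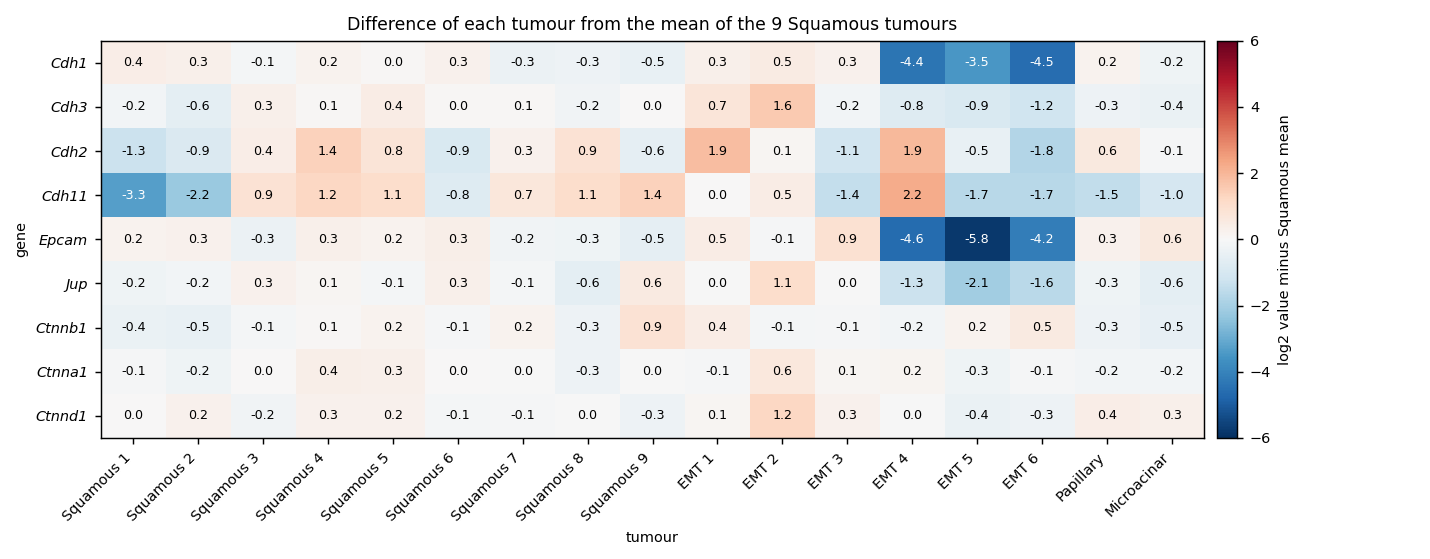
Log2 value minus the mean of the 9 Squamous tumours for the 9 genes (rows) in the 17 tumours (columns), with the difference printed to 1 decimal in each cell. EMT 4 to EMT 6 share low Cdh1, Epcam, Jup and Cdh3, while Cdh2 and Cdh11 are high in EMT 4 and low in EMT 6.

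Counted tumour by tumour, EMT 4 had 4 of the 9 genes below the Squamous range (Cdh1, Cdh3, Epcam and Jup), against 17.6% of all genes, and 2 above it (Cdh2 and Cdh11), against 19.6%. EMT 5 had 5 below (the same 4 and Ctnnd1), against 20.1% of all genes, and 0 above, against 27.1%. EMT 6 had 5 below (the same 4 and Cdh2), against 16.9%, and 0 above, against 26.8%. In these tumours the share of the 9 genes below the range was higher than among all genes. The count above the range in EMT 4 was near the background.

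EMT 1 to EMT 3 had none of the 9 genes below the Squamous range, against 8.42%, 19.2% and 6.44% of all genes. EMT 1 had 3 above it (Cdh2, Cdh3 and Epcam) against 10.1% of all genes, EMT 2 had 5 (Cdh1, Cdh3, Jup, Ctnna1 and Ctnnd1) against 15.5%, and EMT 3 had 2 (Epcam and Ctnnd1) against 9.26%. EMT 2 thus had the highest Cdh1, Cdh3, Jup, Ctnna1 and Ctnnd1 of all 17 tumours under the EMT label. The Papillary tumour had 0 below and 1 above, against 8.26% of all genes each way, and the Microacinar tumour had 1 below and 2 above, against 10.0% and 11.1%.

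**Figure D4:**
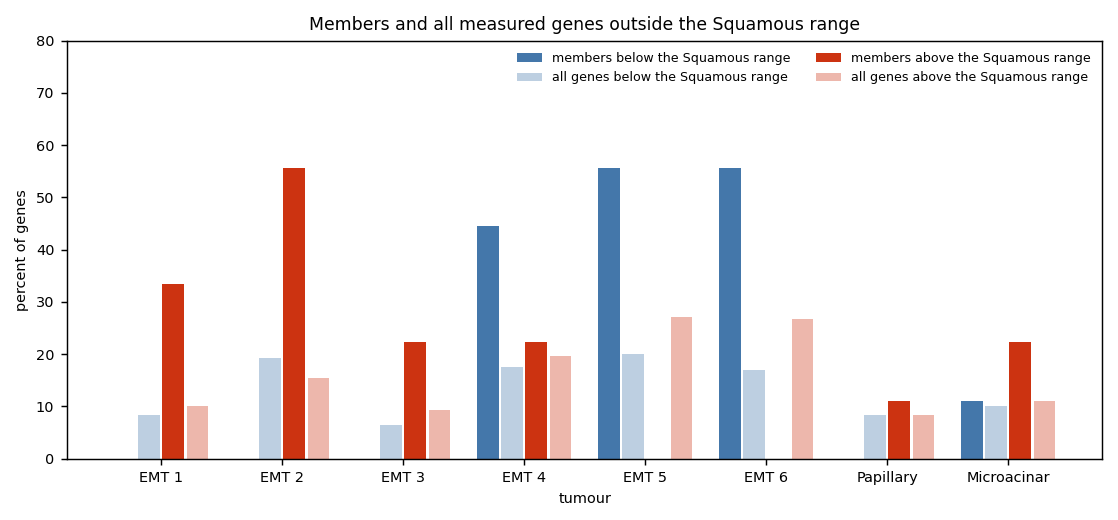
Percent of the 9 genes (full colour) and of all 12393 genes (pale) that lay below (blue) or above (red) the range of the 9 Squamous tumours, in each of the 8 other tumours; missing bars are 0. The full blue bars appear in EMT 4 to EMT 6 (4, 5 and 5 genes) and in the Microacinar tumour (1 gene), and the tallest full red bar is that of EMT 2 (5 genes).

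The comparison of all 6 EMT with all 9 Squamous tumours asked whether the 9 genes differ between the histologies as labelled. The mean of Cdh1 was 9.69 ± 2.49 over the EMT tumours (SD, n = 6), where Squamous tumours had 11.59 ± 0.31 (SD, n = 9), and that of Epcam was 9.50 ± 2.96 where Squamous tumours had 11.72 ± 0.33. With title format as a term in limma, the log2 fold change of EMT minus Squamous was −1.42 for Cdh1 (SE 0.69, adjusted p = 0.368) and −1.61 for Epcam (SE 0.79, adjusted p = 0.369), and for each gene 3 of 6 EMT tumours lay below every Squamous tumour. Jup had a fold change of −0.48 (SE 0.38, limma adjusted p = 0.576), from means of 9.27 ± 1.18 in EMT (SD, n = 6) and 9.93 ± 0.34 in Squamous tumours (SD, n = 9), and the same 3 tumours lay below the Squamous range. Among numbered arrays alone, of which only EMT 4 had low Cdh1, the fold changes were −0.89 for Cdh1, −0.90 for Epcam and −0.0081 for Jup, and within the 3 TM arrays they were −3.56, −4.45 and −2.38, without a test.

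For Cdh3, the mesenchymal cadherins and the other catenins every 95% interval also included 0. Cdh2 had 0.40 (SE 0.57, limma adjusted p = 0.785), Cdh11 −0.21 (SE 0.87, adjusted p = 0.934) and Cdh3 0.060 (SE 0.33, adjusted p = 0.950). Ctnnb1 had −0.0018 (95% interval −0.32 to 0.32), Ctnna1 0.15 (−0.14 to 0.43) and Ctnnd1 0.28 (−0.096 to 0.65), with limma adjusted p of 0.997, 0.641 and 0.480. The intervals of these catenins are narrow beside that of Cdh1, −2.92 to 0.072. Leaving out EMT 2 moved Ctnnd1 to 0.050 and Ctnna1 to 0.030, and leaving out EMT 4 moved Cdh2 to 0.041. Among numbered arrays Cdh11 turned to 0.50 and Ctnnb1 to 0.12, and within the TM arrays Cdh2 and Cdh3 turned to −0.54 and −1.06. Cdh11 was −3.06 within the TM arrays, without a test.

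None of the 9 genes passed an adjusted p of 0.05, and over all genes 0 of 12393 (0%) passed, although 1778 (14.3%) had an unadjusted p below 0.05 in limma. Of the 9 genes, 0 did. Without EMT 1, 14 genes passed, none of them among the 9. EMT and Squamous values overlapped for all 9 genes, and over all genes 0.0968% lay lower and 0.153% higher in EMT without overlap.

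**Figure D5:**
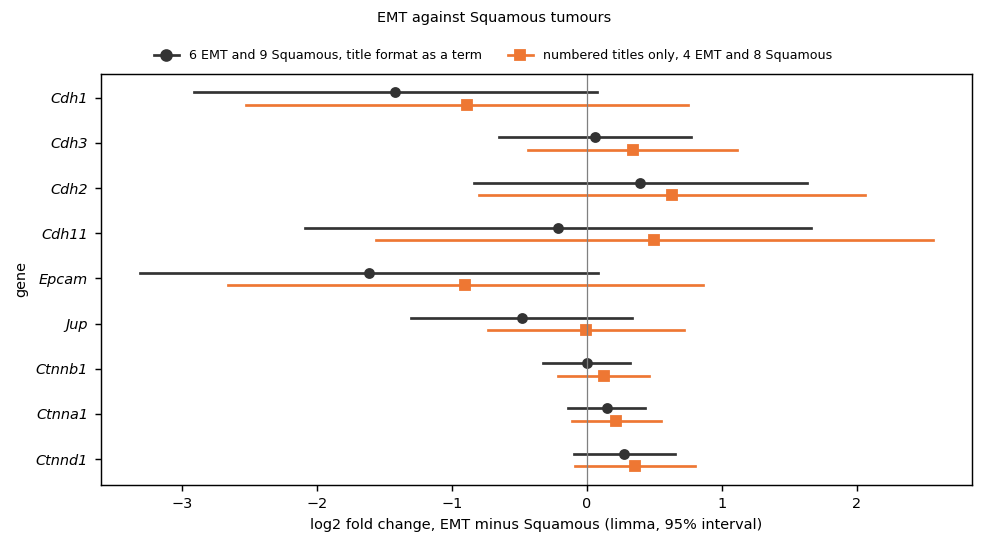
Log2 fold change of EMT minus Squamous tumours for the 9 genes from limma with 95% intervals, over both title formats (circles) and among numbered arrays only (squares). The intervals of Cdh1 and Epcam reach from −2.92 and −3.31 to just above 0, those of Ctnnb1 and Ctnna1 are the narrowest, and every interval includes 0.

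The partners of the cadherin complex did not change in 1 direction. Of 25 listed adherens junction partners 22 were measured, 13 with higher and 9 with lower means in EMT by the model, with a median log2 fold change of 0.070 against 0.0064 over all genes. In limma 0 of them passed after adjustment, and 2 had an unadjusted p below 0.05. These were Rac1, a GTPase that regulates actin at junctions, at 0.36 (SE 0.094, adjusted p = 0.179), and Ptprf, a receptor phosphatase that binds the cadherin complex, at −1.37 (SE 0.58, adjusted p = 0.314). EMT 4 to EMT 6 had 7, 9 and 7 of the 22 below the Squamous range, against 17.6%, 20.1% and 16.9% of all genes, and EMT 1 to EMT 3 had 1, 1 and 2, against 8.42%, 19.2% and 6.44%. Above the range were 4, 7 and 6 in EMT 4 to EMT 6, near the 19.6%, 27.1% and 26.8% of all genes. EMT 1 to EMT 3 had 5, 9 and 0 above it, against 10.1%, 15.5% and 9.26%.

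The partners low in each of EMT 4 to EMT 6 were Nectin4, Actn4, Plekha7, Pkp4 and Ptprf, and those high in each were Ptprm and Rac1; apart from Ptprf and Rac1 they are named here after their values were seen. Ptprf was 8.27, 9.38 and 7.69 in these tumours, against 11.51 to 12.16 in Squamous tumours. Plekha7, which binds p120 catenin at the apical junction, was 6.28, 4.88 and 6.36, against 7.62 to 8.55 in Squamous tumours. Nectin4, an immunoglobulin-like adhesion protein, was 6.01, 6.46 and 5.94 against 7.46 to 9.22. Both lay below every Squamous tumour in each case. Ptprm, a homophilic receptor phosphatase, was 8.67, 8.61 and 8.95 against 6.11 to 8.27 in Squamous tumours, so that it lay higher where the others lay lower.

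Among 13 measured of 19 other listed cadherins, 4 lay below the lower quartile on every array (Cdh4, Cdh8, Cdh9 and Cdh17), and 0 passed in limma, where the median log2 fold change was 0.048 and 2 (Cdh15 and Cdh23) had an unadjusted p below 0.05. The largest was that of Cdh13, a cadherin anchored to the membrane without a cytoplasmic tail, at 0.41 (SE 0.28, adjusted p = 0.521). It was 8.88, 8.48 and 8.55 in EMT 4 to EMT 6, against 6.51 to 8.27 in Squamous tumours and 6.68 to 7.57 in EMT 1 to EMT 3. The highest Squamous value came from Squamous 9, which has a TM title as EMT 5 and EMT 6 do, and numbered Squamous tumours reached 7.56. Of the 13 other cadherins and the 4 cadherins among the members, Cdh13 was the 1 that lay above the Squamous range in each of the tumours with low Cdh1, whereas Cdh2 and Cdh11 did so in EMT 4. Cdh13 was singled out after its values were seen, though the rule on the largest fold change names it too. Of all genes, 19.6%, 27.1% and 26.8% lay above the Squamous range in EMT 4, EMT 5 and EMT 6. The share above it in all of these tumours at once was not counted. Endothelial markers, 7 of 7 measured, averaged 7.99, 8.11 and 7.85 in EMT 4 to EMT 6, within the Squamous range of 6.43 to 8.49, and the fibroblast means of these tumours were 12.51, 12.01 and 11.55, against 8.63 to 11.89. The part of either cell type in the Cdh13 values was not tested.

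Among 5 measured of 7 listed catenin and Epcam relatives 0 passed, with a median of 0.074. The neural delta-catenin Ctnnd2 had the largest fold change, at −0.60 (SE 0.58, limma adjusted p = 0.659). It was 8.78 in EMT 1, above every Squamous tumour, and between 4.10 and 5.31 in EMT 2 and EMT 4 to EMT 6, below the lowest Squamous value of 5.71. These low EMT values lay below the lower quartile of their arrays. The Microacinar tumour, at 5.50, also lay below the Squamous range.

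The genes whose values ran closest to those of the members were found by the root mean square difference between centred log2 values over the 17 tumours. For Cdh1, whose own root mean square spread was 1.64, the nearest were Spint1 at 0.37, Erbb3 at 0.41, Cdcp1 at 0.42, Ptprf at 0.42 and Esrp2 at 0.43. Epcam, with a spread of 1.96, had Fxyd3 at 0.37, Kdf1 at 0.41, Dsg2 at 0.46, 2610528J11Rik at 0.47 and Ehf at 0.48. These distances are small beside the spread of the genes themselves. Over the 14 numbered arrays 3 of the 5 nearest genes of Cdh1 and 1 of those of Epcam were the same.

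Cdh11, with an SD of 1.54 over the 17 tumours, had Spon1 at 0.58, Fbln1 at 0.66, Thy1 at 0.67, Islr at 0.71 and Fbn2 at 0.75, of which 1 was among the nearest over numbered arrays. Relative to their own spread, Cdh2 and Cdh3 had no close neighbour, although the distances for Cdh3 were as small as those for Cdh1. The nearest to Cdh2 (spread 1.06) were Ptprd, Prss23, Dact1, Fbln1 and Tril at 0.70 to 0.72, and to Cdh3 (spread 0.63) Ngfr, Unc45a, Slc52a3, Igsf9 and Lmo7 at 0.34 to 0.37, and for both genes 0 of 5 were the same over numbered arrays.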

How the data were processed

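RNA of 17 mammary tumours was measured on 1 Affymetrix array each. The authors deposited log2 values per probe set. That they are log2 follows from their range, and how they were summarised and normalised is not given in the sources used here. Array medians were 7.23 to 7.40, and the values were used without further normalization. Of 22690 probe sets 20380 had 1 gene symbol in the probe table, 691 several and 1555 none, 64 were controls, and 20351 were found in the RefSeq gene table through their identifiers. They cover 12393 genes, each represented by its brightest probe set on average. No detection calls were used, so the lower quartile of an array (5.24 to 5.41) marks its dim end.

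The EMT and Squamous groups were fitted in limma 3.58.1 (R 4.3.3), with title format as an additive term and Benjamini-Hochberg adjustment over all genes. Squamous 7 shares its title number with Squamous 8, and Squamous 5 with the Microacinar tumour. No arrays of the same label were treated as copies: the closest arrays, Squamous 5 and Squamous 7, differed with an SD of 0.32 over probe sets. The fit was tested on data with known changes before use.

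Named genes were the 9 members, the gene of each pathway list with the largest fold change, and the 5 nearest genes of Cdh1, Epcam, Cdh3, Cdh2 and Cdh11, with exceptions marked in the text. The largest EMT minus Squamous log2 fold changes within the marker lists were 0.78 for Col5a1 (fibroblast), −0.97 for Vwf (endothelial), −1.71 for Sox10 (Schwann and nerve), 2.02 for Myh1 (skeletal muscle), −1.77 for Trp63 (myoepithelial and basal), −2.95 for Elf5 (luminal epithelial), −1.20 for Cd14 (macrophage), −1.29 for Ms4a1 (lymphocyte, 5 of 6 measured) and −2.20 for Adipoq (adipocyte, 3 of 5 measured), none past the threshold. The genes and lists were chosen with earlier results of these data known. Python 3.11.15, pandas 2.3.3, numpy 2.4.6 and matplotlib 3.10.9 were used.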

Additional observations from a re-analysis of the deposited data

Results flagged for a closer look

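Ctnnb1 in Squamous 9, at 13.74, lay apart from the other 8 Squamous tumours, of which the next highest was Squamous 5 at 13.06, a gap of 0.68 or 0.51 of the range of the 9 tumours, where a gap this wide marks a tumour as far from the others. Squamous 9 is the 1 Squamous array with a TM title, and it was also the highest Squamous tumour on the other Ctnnb1 probe sets, at 10.93 and 11.61. Both groups were examined in this way for the 9 genes, 18 times in all, and chance gives about 1 such value in 20.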

How the results depend on the processing

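No paired analysis was possible because the EMT and Squamous tumours share no title number. The count of genes past the threshold stayed at 0 without title format, among numbered arrays, with quantile normalization, subtracted medians, the mean of probe sets, every probe set, genes above the median level (which leaves out Cdh2 and Cdh3), array weights, trended robust eBayes, a fit of all 17 tumours (identical, since single tumours add no spread) and an average of Squamous 7 and Squamous 8, which share a title number; without 1 tumour it was 0 to 14, the 14 without EMT 1. Members past it were 0 throughout. Members above the Squamous range became 1 in EMT 3 with subtracted medians, and 1 in EMT 5 and 1 in EMT 6 against numbered Squamous arrays only. Every other such count stayed within 1.5 times. Among these, members below the range were 6 in EMT 5 and 7 in EMT 6 with quantile normalization, from 5 in each.

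Direction turned where fold changes were small, and the cause was not tested. Cdh3 was −0.12 without title format, −0.0023 with array weights and −1.06 within TM arrays, and −0.30 to 0.34 without 1 tumour. Ctnnb1 was 0.13 without title format, 0.12 among numbered arrays, 0.0078 with subtracted medians and 0.0066 with array weights, and −0.13 to 0.12 without 1 tumour. Cdh11 was 0.50 among numbered arrays and −0.82 to 0.50 without 1 tumour. Without 1 tumour Cdh2 was 0.041 to 0.83, Ctnna1 0.030 to 0.22 and Ctnnd1 0.050 to 0.38, and array weights gave 0.029 for Cdh2 and −0.88 for Cdh11. Within TM arrays Cdh2 was −0.54, Cdh11 −3.06, Ctnnb1 −0.50, Ctnna1 −0.15 and Ctnnd1 −0.032. Without Squamous 9 the fold changes equal those of numbered arrays. Cdh1, Epcam and Jup stayed lower in EMT under every alternative, from −1.85 to −0.60, −2.18 to −0.76 and −0.85 to −0.0081 without 1 tumour, and the smallest adjusted p of limma was 0.219, 0.182 and 0.319. Without title format they were −1.89, −2.22 and −0.66. Their unadjusted p in limma fell below 0.05 in 4, 4 and 1 of 25 alternatives. The smallest of these unadjusted limma p were 0.023 for Cdh1, 0.016 for Epcam and 0.022 for Jup. The difference between title formats in the EMT effect passed for none of the 9 genes in limma (57 of 12393 genes passed), the smallest adjusted p being 0.248 for Jup. With 1 Squamous tumour under the TM format, and values near the lower end of the scale for Cdh2, these differences are poorly measured.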
